A study of Mus musculus with 2 samples.

Results

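The mitochondrial genome of the mouse carries 37 genes, taken here as the genes whose GENCODE symbol starts with mt-. All 37 were listed for both libraries, among 43346 Ensembl genes in all. They comprise 13 mRNAs, 2 rRNAs and 22 tRNAs. The libraries hold total RNA from the spleens of 2 B6NCrl pups of 1 pregnancy, taken on day 0 after birth, with 1 library per pup. Replicate 1 came from pup 2 and replicate 2 from pup 1. The labels name no treatment and no engineered allele, list 1 donor identifier for both pups, and give an input of 10 ng of RNA longer than 200 nt. With 1 group of n = 2 there is no contrast between conditions. The data give the levels of the mRNAs and rRNAs and how far the libraries of the pups lay apart.

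All 13 proteins encoded by mitochondrial DNA are subunits of the oxidative phosphorylation complexes, and the rRNAs and tRNAs serve the mitochondrial ribosome that makes them. Both strands of the circular genome are transcribed into long precursors, which are cut mostly at the tRNAs that lie between the other genes. Most of the mRNAs are then polyadenylated. The newborn mouse spleen makes red cells, which lose their mitochondria as they mature. In bulk tissue, fewer cells of a type and less RNA per cell cannot be told apart.

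The depth was 33122187 estimated counts for replicate 1 and 32162543 for replicate 2. The libraries were distinct: over genes that averaged 20 counts or more their counts differed with a chi-square of 23.6 per degree of freedom, where sampling noise alone gives about 1. All 5 spleen markers reached 1 TPM in both libraries, among them Tlx1, a transcription factor needed to form the spleen, with 15.5 TPM in replicate 1 and 24.1 TPM in replicate 2. TPM is the estimated count per unit of transcript length, scaled to the same total in every library.

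The annotated ends of the mRNAs show how closely the genes are packed. On chromosome M of GRCm38 (mm10), 28 of the 37 genes lie on the plus strand, and mt-Nd6 and 8 tRNAs lie on the minus strand. Of the mRNAs, 9 start with ATG, mt-Nd1 with GTG, mt-Nd2 with ATA, mt-Nd3 with ATT and mt-Nd5 with ATC. A whole TAA ends 8 of them and a whole TAG ends mt-Nd1 and mt-Nd2. The other 3, mt-Co3, mt-Nd4 and mt-Cytb, stop 1 base past the last whole codon, and in mammalian mitochondria the poly(A) tail completes such stop codons. The last 30 bases of mt-Nd1, which has a whole stop codon, and of mt-Nd4 and mt-Cytb, which lack one, are given 5′ to 3′ from the GENCODE M21 transcripts, with the stop codon or its annotated part in capitals.
mt-Nd1: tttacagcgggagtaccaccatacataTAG
mt-Nd4: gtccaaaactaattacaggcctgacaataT
mt-Cytb: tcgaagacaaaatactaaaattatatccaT

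Several of these genes have near-identical nuclear copies among the listed genes, and reads that fit both were divided between them. Fragments of mitochondrial DNA have entered nuclear genomes many times, and a run of 7 annotated pseudogenes lies on the minus strand of chromosome 1, between 24611535 and 24616197 (GRCm38). In mitochondrial order they are Gm29216, which resembles part of mt-Co1, Gm28661 (mt-Co2), Gm10925 (mt-Atp6), Gm28437 (mt-Co3), Gm28438 (mt-Nd3), Gm10222 (mt-Nd4l) and Gm28439 (the start of mt-Nd4). All but Gm29216 and Gm28438 matched the mitochondrial gene with 0 mismatches. The ends of 5 genes and their copies are shown because they hold nearly all that sets the pair apart. Each is the last 30 bases of the GENCODE M21 transcript, 5′ to 3′, with the bases of the mitochondrial gene beyond the end of the copy in capitals.
mt-Co3: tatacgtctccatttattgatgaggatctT
Gm28437: ctatacgtctccatttattgatgaggatct
mt-Co2: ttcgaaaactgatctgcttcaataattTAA
Gm28661: tatttcgaaaactgatctgcttcaataatt
mt-Atp6: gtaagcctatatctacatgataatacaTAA
Gm10925: ctagtaagcctatatctacatgataataca
mt-Nd4l: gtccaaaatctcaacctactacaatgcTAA
Gm10222: tacgtccaaaatctcaacctactacaatgc
mt-Nd3: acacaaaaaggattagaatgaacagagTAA
Gm28438: tgaacacaaaaaggattagaatgaacagag

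For mt-Co3 the bases beyond the copy were 1 base, and for mt-Co2, mt-Atp6, mt-Nd4l and mt-Nd3 the 3 bases of the stop codon. mt-Nd3 and Gm28438 also differ at 1 inner position, T3C, written with the base of the mitochondrial gene first and counted from 1 at the start of that gene. It lies at base 9461 of chromosome M. The local alignment that found Gm29216 covered 98.2% of it, at 99.8% identity. Set without gaps against bases 1054 to 1545 of mt-Co1, Gm29216 has 6 mismatches, T1056A, C1057T, A1059G, A1060G, C1062A and A1066T. All 6 lie within its first 13 bases. The sequences around these positions follow, 5′ to 3′, with the differing bases in capitals. The 45 bases begin at base 1 of mt-Nd3, Gm28438 and Gm29216, and at base 1041 of mt-Co1.
mt-Nd3: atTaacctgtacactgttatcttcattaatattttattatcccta
Gm28438: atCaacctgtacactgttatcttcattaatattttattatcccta
mt-Co1: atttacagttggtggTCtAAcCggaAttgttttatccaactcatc
Gm29216: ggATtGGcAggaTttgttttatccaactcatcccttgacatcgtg

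The sequences compared are those of the C57BL/6J reference, and the pups were B6NCrl. The pups' own mitochondrial sequence was not analysed here.

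None of the 22 tRNAs could be measured. They are 59 to 75 nt long, and the effective length, the number of positions at which a fragment can start, was the length minus 99 for the measured members. The effective length of all 22 was listed as 0, and each had 0 counts and 0 TPM in both libraries. The same held for all 2218 Ensembl genes with an effective length of 0, which make up 5.12% of the genes listed. A 0 for a mitochondrial tRNA therefore gives no upper limit on its level. The longest and the shortest, the leucine tRNA mt-Tl1 and the serine tRNA mt-Ts2, are shown whole, 5′ to 3′, for their size.
mt-Tl1: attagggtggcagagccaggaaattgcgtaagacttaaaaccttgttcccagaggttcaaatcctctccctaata
mt-Ts2: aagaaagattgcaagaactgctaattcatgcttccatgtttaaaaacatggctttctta

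All 13 mRNAs and both rRNAs exceeded 1 TPM in both libraries, against 31% of all 43346 genes. The mRNAs held 2.59% of TPM in replicate 1 and 2.52% in replicate 2. The rRNAs held 0.847% in replicate 1 and 0.919% in replicate 2. Of the mRNAs, 7 ranked within the first 100 genes by mean TPM. The median of the 13 mean levels was 1513 TPM, against 11.5 TPM over all genes that reached 1 TPM in both libraries.

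Both rRNAs of the mitochondrial ribosome were abundant. mt-Rnr2, the RNA of the large subunit (chromosome M, 1094 to 2675), stood at 5766 TPM in replicate 1 and 6222 TPM in replicate 2. mt-Rnr1, the RNA of the small subunit (chromosome M, 70 to 1024), stood at 2705 TPM in replicate 1 and 2972 TPM in replicate 2. The large rRNA was thus 2.13 times the small one in replicate 1 and 2.09 times in replicate 2, while a ribosome holds 1 of each. The rRNAs carried a posterior SD of 0 counts. This SD is the quantification's own measure of how uncertain the division of shared reads was. Summed rRNA was 0.327 times summed mRNA in replicate 1 and 0.365 times in replicate 2, on the TPM scale. Whether rRNA was removed before sequencing was not assessed here. The rRNA levels and ratios are therefore those of the libraries and may differ from those of the tissue.

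The subunits of ATP synthase, complex V, had the highest deposited mRNA levels. mt-Atp6, a subunit of its proton channel (chromosome M, 7927 to 8607), stood at 7252 TPM in replicate 1 and 7500 TPM in replicate 2, which was rank 10 among all genes in both. mt-Atp8, a small membrane subunit (chromosome M, 7766 to 7969), stood at 5019 TPM in replicate 1 and 4785 TPM in replicate 2. Their reading frames overlap by 43 nt and are carried on 1 mRNA. The level of mt-Atp6 was nevertheless 1.44 times that of mt-Atp8 in replicate 1 and 1.57 times in replicate 2. The effective length of mt-Atp8 was 105 nt, against 582 nt for mt-Atp6. Adding the copy Gm10925 left mt-Atp6 close to its deposited level, at 7410 TPM in replicate 1 and 7694 TPM in replicate 2.

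Cytochrome c oxidase, complex IV, has 3 mitochondrially encoded subunits, and each has a copy on chromosome 1. mt-Co1, the catalytic subunit (chromosome M, 5328 to 6872), stood at 2619 TPM in replicate 1 and 2876 TPM in replicate 2. mt-Co2, which takes electrons from cytochrome c (chromosome M, 7013 to 7696), stood at 2161 TPM in replicate 1 and 2277 TPM in replicate 2. mt-Co3, a core subunit without a redox centre (chromosome M, 8607 to 9390), stood at 2694 TPM in replicate 1 and 1621 TPM in replicate 2. It was the highest of the 3 in replicate 1 and the lowest in replicate 2, while mt-Co1 lay above mt-Co2 in both.

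The copies held a large share of the counts of these pairs. Gm28437 held 69.5% of the counts of its pair with mt-Co3 in replicate 1 and 82.4% in replicate 2. Gm28661 held 46.5% of its pair with mt-Co2 in replicate 1 and 44.2% in replicate 2. Gm29216 held 33.6% of its pair with mt-Co1 in replicate 1 and 33.1% in replicate 2. Only the share in the mt-Co3 pair lay more than 10 percentage points apart between the libraries.

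With the counts of its copies added and divided by the effective length of the gene itself, mt-Co3 came to 8846 TPM in replicate 1 and 9213 TPM in replicate 2. The mean was 4.18 times the deposited mean, and mt-Co3 stood first among the 15 measured genes in place of rank 7. In the same way mt-Co1 came to 3943 TPM in replicate 1 and 4299 TPM in replicate 2, and mt-Co2 to 4041 TPM in replicate 1 and 4087 TPM in replicate 2. The level of mt-Co3 was then 2.24 times that of mt-Co1 in replicate 1 and 2.14 times in replicate 2. The deposited levels gave 1.03 times in replicate 1 and 0.564 times in replicate 2. Whether any of these reads came from the nuclear copies was not tested.

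**Figure D1:**
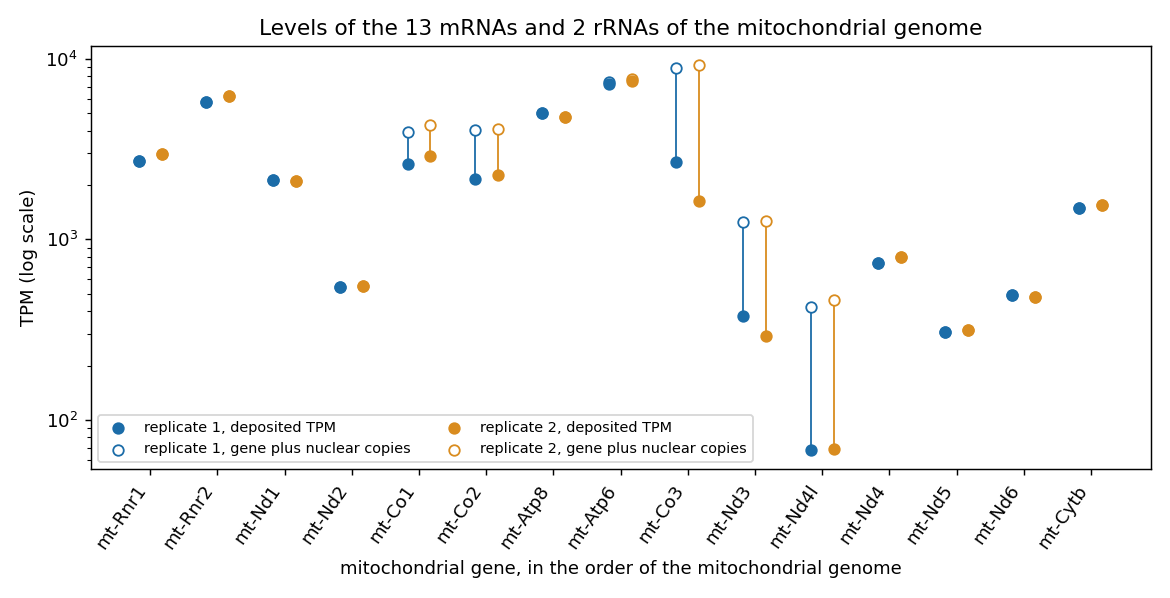
TPM on a log axis for the 13 mRNAs and 2 rRNAs in genome order, with replicate 1 in blue and replicate 2 in orange; filled points are deposited levels, and open points joined to them are the gene plus its nuclear copies over the effective length of the gene. The joined points lie farthest apart for mt-Nd4l, mt-Co3 and mt-Nd3, with mean ratios of 6.45, 4.18 and 3.80.

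Complex III has 1 mitochondrially encoded subunit, cytochrome b. mt-Cytb (chromosome M, 14145 to 15288) stood at 1485 TPM in replicate 1 and 1540 TPM in replicate 2, with a posterior SD of 0 counts. Its annotated copy on chromosome 4, Gm11410, at 92.9% identity, had 0 counts in both libraries.

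The 7 subunits of complex I, NADH dehydrogenase, lie in the membrane arm of that enzyme and had the lowest median. It was 494 TPM in replicate 1 and 482 TPM in replicate 2, while the complex IV median was 2619 TPM in replicate 1 and 2277 TPM in replicate 2. mt-Nd1, the mRNA that follows the rRNAs on the genome (chromosome M, 2751 to 3707), was the highest of the 7, with 2134 TPM in replicate 1 and 2091 TPM in replicate 2. The others lay much lower. mt-Nd4 stood at 735 TPM in replicate 1 and 796 TPM in replicate 2. mt-Nd2 stood at 541 TPM in replicate 1 and 553 TPM in replicate 2. mt-Nd5 stood at 305 TPM in replicate 1 and 316 TPM in replicate 2. The spread between the libraries was small against these steps: the means were 766 ± 43.1 TPM for mt-Nd4, 547 ± 8.04 TPM for mt-Nd2 and 310.5 ± 7.76 TPM for mt-Nd5 (SD, n = 2).

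mt-Nd6, the only mRNA on the minus strand (chromosome M, 13552 to 14070), stood at 494 TPM in replicate 1 and 482 TPM in replicate 2. That was 1.62 times the level of mt-Nd5 in replicate 1 and 1.52 times in replicate 2. The ends of mt-Nd5 and mt-Nd6 overlap by 14 nt on opposite strands. No strand setting was found in the sources used here, so reads of mt-Nd6 and of plus-strand precursor over the same bases cannot be told apart.

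mt-Nd3 and mt-Nd4l, the shortest mRNAs of complex I, had most counts of their pairs on the copies. mt-Nd4l (chromosome M, 9877 to 10173) stood at 68.1 TPM in replicate 1 and 69.1 TPM in replicate 2, and Gm10222 held 84.0% of the pair in replicate 1 and 85.0% in replicate 2. mt-Nd4l and mt-Nd4 overlap by 7 nt and are carried on 1 mRNA. The deposited level of mt-Nd4 was 10.8 times that of mt-Nd4l in replicate 1 and 11.5 times in replicate 2, and with copies added it was 1.73 times in both. mt-Nd3 (chromosome M, 9459 to 9806) stood at 374 TPM in replicate 1 and 289.8 TPM in replicate 2. Gm28438 held 70.1% of that pair in replicate 1 and 77.2% in replicate 2, and with it mt-Nd3 came to 1252 TPM in replicate 1 and 1270 TPM in replicate 2. Over all 13 mRNAs the highest deposited mean was 108 times the lowest, and with copies added 29.1 times.

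**Figure D2:**
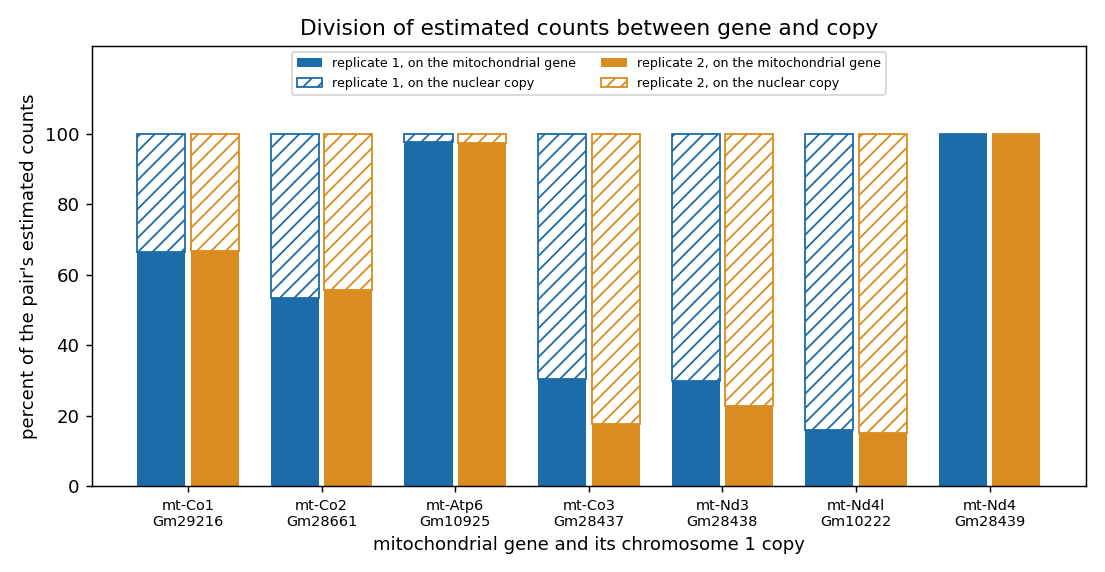
Percent of the estimated counts of each pair on the mitochondrial gene (solid) and on its chromosome 1 copy (hatched), with replicate 1 in blue and replicate 2 in orange. The share of the copy ran from 0% for Gm28439 to 84.0% in replicate 1 and 85.0% in replicate 2 for Gm10222.

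The sequences give how many positions could tell a gene from its copy. A start position was taken as the gene's own where the 100 nt that begin there do not occur in the copy. mt-Co3 had 1 own position of 685, mt-Co2 had 3 of 585, mt-Atp6 had 3 of 582, mt-Nd4l had 3 of 198 and mt-Nd3 had 6 of 249. mt-Nd4 had 502 of 1279, since the copy covers its first 876 bases, and mt-Co1 had 1066 of 1446. Gm29216 had 13 own positions and Gm28438 had 3, and the other 5 copies had 0.

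The 5 genes with 6 or fewer own positions were also the mRNAs with a posterior SD above 5% of the expected count in both libraries. The SD is a spread around the posterior mean, a separate estimate. Percents of the expected count are therefore not its relative error. For mt-Co3 the SD was 43660 counts in replicate 1, around a posterior mean of 80099, and 45100 in replicate 2, around 68069. Against the expected counts of 58163 in replicate 1 and 33023 in replicate 2 that was 75.1% and 137%. For mt-Nd4l it was 53.0% of the expected count in replicate 1 and 60.7% in replicate 2. For mt-Co2 it was 29.9% in replicate 1 and 28.8% in replicate 2. It was smaller for mt-Nd3, with 11.99% in replicate 1 and 17.02% in replicate 2, and for mt-Atp6, with 9.44% in replicate 1 and 7.16% in replicate 2. For mt-Co1 it was 0.149% in replicate 1 and 0.155% in replicate 2. Whether that division was right was not tested. Gm29216 stood at 4867 TPM in replicate 1 and 5231 TPM in replicate 2, above mt-Co1 in both. The posterior SD was 0 in both for mt-Nd1, mt-Atp8, mt-Nd5, mt-Nd6 and mt-Cytb, for which no annotated copy was found on chromosome 1. Only annotated genes were searched, and the 43 nt that mt-Atp8 shares with mt-Atp6 lie within Gm10925.

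The deposited expected counts and the posterior means, which average over possible divisions, placed the reads differently. The posterior mean of mt-Co3 was 80099 counts in replicate 1 and 68069 in replicate 2, above the expected count in both. For mt-Atp6 the posterior mean was 116343 counts in replicate 1 and 116383 in replicate 2, below the expected counts of 133025 in replicate 1 and 129792 in replicate 2. The posterior means placed 14.4% of that pair on Gm10925 in replicate 1 and 12.6% in replicate 2, where the expected counts placed 2.13% in replicate 1 and 2.52% in replicate 2.

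**Figure D3:**
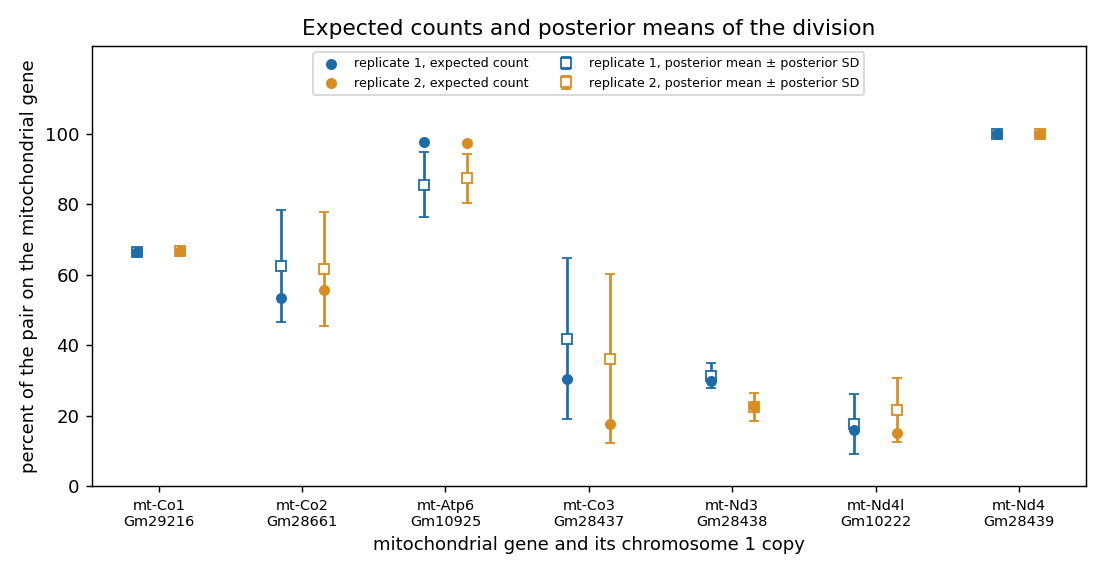
Percent of each pair on the mitochondrial gene by expected count (filled circles) and by posterior mean with the posterior SD as bars (open squares), with replicate 1 in blue and replicate 2 in orange. The bars are longest for mt-Co3 and too short to see for mt-Co1 and mt-Nd4, and the circles of mt-Atp6 lie above its bars in both libraries.

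The libraries of the pups were then compared gene by gene. Ratios are replicate 1 over replicate 2, from estimated counts scaled by TMM (trimmed mean of log ratios). With 1 library per pup there is no replicate check and no p-value. Of 15499 genes that averaged 20 counts or more, 7.09% were at least 1.5-fold apart, 2.55% higher and 4.54% lower in replicate 1. Of the 15 measured mitochondrial genes 1 was, mt-Co3, a share near that of all genes.

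mt-Co3 had 58163 counts in replicate 1 and 33023 in replicate 2, a 1.83-fold difference with a 95% interval of 1.81 to 1.86. This is the exact Clopper-Pearson interval, which covers counting error only and leaves out the division of shared reads. The copy Gm28437 differed the other way, with 132819 counts in replicate 1 and 154630 in replicate 2. The pair summed to 190982 counts in replicate 1 and 187653 in replicate 2, and the ratio for gene plus copies was 1.06. mt-Co3 and Gm28437 thus differed in opposite directions, and their sums lay within 1.5-fold of each other.

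mt-Nd3 came next in size, with 2936 counts in replicate 1 and 2146 in replicate 2, a 1.42-fold difference (interval 1.35 to 1.51). Its pair summed to 9829 counts in replicate 1 and 9402 in replicate 2, and the ratio with the copy was 1.09. By posterior mean counts the order turned: mt-Nd3 was 1.52-fold apart and the only member past 1.5-fold, and mt-Co3 was 1.23-fold apart. For the other 11 mRNAs the log2 ratio ran from 0.01 for mt-Co1 to 0.21 for mt-Atp8. It was 0.01 for mt-Rnr1 and 0.03 for mt-Rnr2.

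The log2 ratios of all 13 mRNAs were above 0 under TMM scaling, where 7611 of all 15499 genes were higher in replicate 1. The median was 0.11 for the 13 mRNAs, against -0.01 over all genes. But 6 of the 13 turned below 0 by library size alone and 8 by deposited TPM. By posterior mean counts mt-Nd4l turned below 0 (-0.26, against 0.12 by expected counts). By library size alone the medians were 0.01 for the 13 mRNAs and -0.11 over all genes. By deposited TPM the medians were -0.03 for the 13 mRNAs and -0.14 over all genes. Relative to all genes, the median of the 13 mRNAs was 0.12 higher under TMM and 0.11 higher by deposited TPM. Markers of other cell types also differed between the libraries. All 4 pancreas markers were higher in replicate 1, by 2.12- to 3.47-fold, and summed to 809.9 TPM in replicate 1 and 292 TPM in replicate 2. All 3 mast cell markers were lower in replicate 1, and summed to 658 TPM in replicate 1 and 1535 TPM in replicate 2. All 4 erythroid markers were higher in replicate 1, by 1.11- to 1.27-fold, and all 5 spleen markers were lower, with sums of 527 TPM in replicate 1 and 711 TPM in replicate 2. No marker was at 0, and their part in the mitochondrial ratios was not tested.

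**Figure D4:**
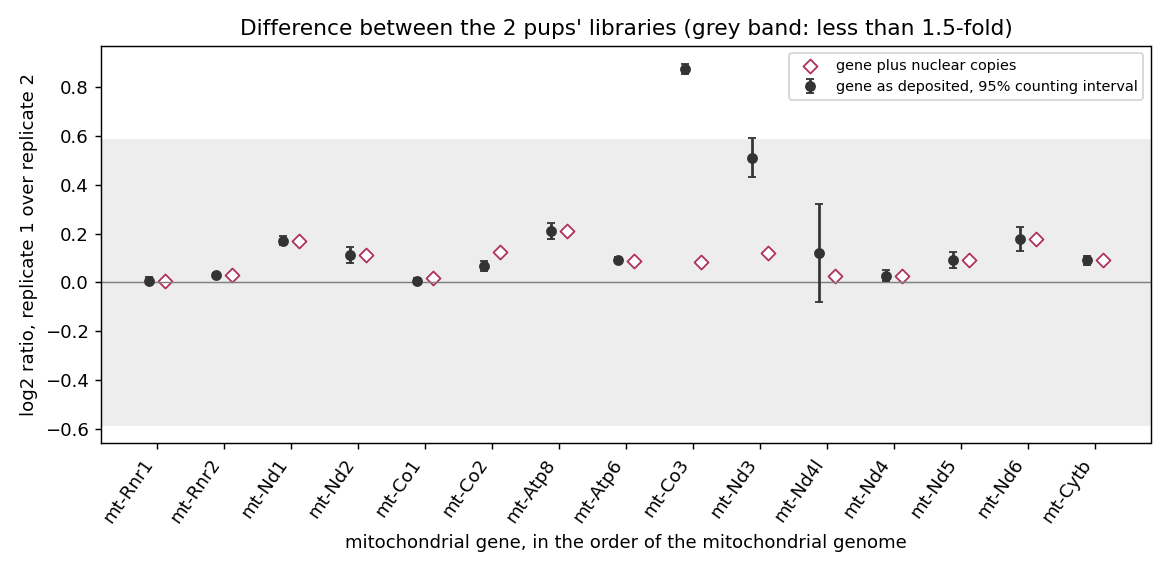
The log2 ratio of replicate 1 over replicate 2 under TMM scaling for the 13 mRNAs and 2 rRNAs, as deposited (circles with 95% counting intervals) and with nuclear copies added (diamonds), where the grey band marks less than 1.5-fold. mt-Co3 is the only circle outside the band, at 0.87, and its diamond lies at 0.08.

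Nuclear genes for the expression and upkeep of mitochondrial DNA were all expressed, with a median far below that of the mitochondrial mRNAs. Of 33 listed genes 32 matched, and all 32 reached 1 TPM in both libraries, with a median of 14.7 TPM, against 1513 TPM for the 13 mRNAs. Slirp, which binds and stabilizes mitochondrial mRNAs together with Lrpprc, was the highest, with 172 TPM in replicate 1 and 152 TPM in replicate 2. Rexo2, an oligoribonuclease, stood at 138 TPM in replicate 1 and 128 TPM in replicate 2. Ssbp1, the single-stranded DNA binding protein of mitochondrial replication, stood at 80.3 TPM in replicate 1 and 89.3 TPM in replicate 2. These 3 lay above the deposited level of mt-Nd4l and below that of the other mitochondrial mRNAs. With its copy added, mt-Nd4l lay above all 3, at 425 TPM in replicate 1 and 460 TPM in replicate 2. Tfam, which packages mitochondrial DNA and is needed to start its transcription, stood at 34.4 TPM in replicate 1 and 31.9 TPM in replicate 2. Polrmt, the mitochondrial RNA polymerase, stood at 14.1 TPM in replicate 1 and 16.5 TPM in replicate 2. Of the 32 genes 0 were at least 1.5-fold apart, against 7.09% of all genes. Their median log2 ratio was 0.10 under TMM, against -0.01 over all genes.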

How the data were processed

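Total RNA of 2 newborn spleens was sequenced with 1 library per pup. The authors deposited estimated counts per gene, the expected counts of an RSEM-like layout, with ambiguous reads split between features, per the file headers. They also deposited posterior means and SDs of these counts, and TPM relative to all features with spike-ins included. The genome is mm10 and the gene models are GENCODE M4, per the deposited text listings. Aligner, software versions and strand setting: not given in the sources used here. Names, coordinates and sequences came from GENCODE M21 (42462 of 43346 genes matched, and all 37 members had equal lengths). Nuclear copies were annotated genes that aligned by blastn (BLAST 2.17.0) to the mitochondrial sequence rebuilt from its transcripts, at 90% identity or more over at least 50% of their length. The alignment found 16, of which 15 were in the tables. For ratios, edgeR 4.0.16 under R 4.3.3 gave the TMM scaling of rounded counts, with a prior count of 2 and a minimum mean count of 20. DESeq2 1.42.0 size factors were an alternative, beside other scalings, filters and estimates. The steps were tested on simulated data.

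The members and lists were chosen with earlier results of these data known. Named were all mRNAs and rRNAs, copies that averaged 20 counts or more, and the 3 highest genes of the nuclear list. Gm28439, Gm13339, Gm11407, Gm11408, Gm11410, Tlx1, Tfam, Polrmt and the 2 tRNAs shown by length were added beyond that rule, after values were seen. No p-value is given, since there is 1 group with n = 2.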

Additional observations from a re-analysis of the deposited data

How the results depend on the processing

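The mitochondrial share of TPM was 3.44% ± 0.00276 (SD, n = 2). Its parts differed in opposite directions between the libraries. The mRNA share was 2.59% in replicate 1 and 2.52% in replicate 2, and the rRNA share 0.847% in replicate 1 and 0.919% in replicate 2. The whole share was 3.46% ± 0.0497 by posterior mean TPM, 2.68% ± 0.000523 as a share of counts, and 3.44% with either replicate left out. Adding the deposited TPM of the nuclear copies, each over its own effective length, gave 4.97% ± 0.138. The ratio of summed rRNA to summed mRNA was 0.346 ± 0.0266. It was 0.655 by counts, which are not divided by length, and between 0.327 and 0.365 with a replicate left out. With the counts of the copies added over the effective length of the gene itself, it was 0.238. The number of measured members at least 1.5-fold apart was 0 with the copies summed and 1 under the other alternatives. By posterior mean counts that 1 was mt-Nd3, with a log2 ratio of 0.60, in place of mt-Co3, with 0.29, and mt-Nd4l lay at -0.26, against 0.12 by expected counts. The median log2 ratio of the 13 mRNAs ran from -0.03 by deposited TPM to 0.16 by spike-in totals, which rest on 694 counts in replicate 1 and 748 in replicate 2. Relative to the median of all genes it stayed between 0.10 and 0.12. The number of members detected was 15 under every alternative run, and 15 with either replicate left out. No paired analysis was possible because the labels give 1 group. Of the measured members mt-Nd4l had the fewest counts, 425 in replicate 1 and 407 in replicate 2. Its pair with Gm10222 held 2650 counts in replicate 1 and 2710 in replicate 2. The counting interval around the 1.09-fold ratio of mt-Nd4l was 0.947 to 1.25 and leaves out the division of shared reads.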

Other observations

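Nuclear copies outside chromosome 1, which match the mitochondrial genes less closely, had few or no counts. On chromosome 2, Gm13340 resembles mt-Co1 at 97.6% identity and had 49.8 counts in replicate 1 and 49.1 in replicate 2. Gm13341 resembles mt-Co2 at 95.9% identity and had 43.3 counts in each library. Gm13339 resembles mt-Nd2 at 96.7% identity and had 0 counts in both. The 3 copies on chromosome 4, Gm11407 (mt-Nd5), Gm11408 (mt-Nd6) and Gm11410 (mt-Cytb), had 92.4% to 93.6% identity and 0 counts in both. Against this, the 7 chromosome 1 copies together held 38.5% of the counts of their pairs in replicate 1 and 42.0% in replicate 2.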
